A study of Homo sapiens with 6 samples.

Results

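The 32 genes described here encode the enzymes of glycolysis, the lactate dehydrogenases and lactate transporters, the regulators that set the pace of glycolysis, 2 phosphoglucomutases and 6 enzymes of the pentose phosphate pathway. They were chosen by gene symbol from the 63677 genes of the count table; where a symbol had more than 1 identifier (ENO2, PGK1, TKT and TPI1), the identifier with the highest total was taken. The cells were RPMI-8402, a human T-cell acute lymphoblastic leukaemia line that stably expressed Cas9 in both groups and grew in medium with tetracycline-free serum. Doxycycline (DOX, 3 libraries) switched on guide RNAs for 72 hours, and control cells received DMSO (3 libraries). Both MYC and MYCN are named as guide targets in the series text, only MYC in the treatment text, and the genotype given to DOX samples is MYCN_knockout, against control for DMSO samples. The count columns carry numbers that are used here as names: DOX 12, 24 and 36, and DMSO 11, 23 and 35. The labels do not say whether replicates were grown as separate cultures, or whether the cells were 1 clone, so the p-values below reflect variation among these 6 libraries, possibly technical. Doxycycline-treated cells lacking guides were not analysed here, so effects of the drug and of the guides cannot be told apart. In bulk RNA, fewer cells with a transcript and less of it per cell cannot be told apart either.

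Glycolysis splits glucose into pyruvate in the cytosol and yields ATP without oxygen, and lactate dehydrogenase turns pyruvate into lactate so that the pathway can go on. The pentose phosphate pathway branches off at glucose 6-phosphate: its oxidative arm makes NADPH, and its non-oxidative arm exchanges sugars between ribose 5-phosphate, the backbone of nucleotides, and glycolysis. Proliferating T cells and their leukaemias are known for a high flow of glucose to lactate, and MYC proteins are known activators of many of these genes through the E-box sequence CACGTG.

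Total counts ran from 28602145 to 29204148 per library. MYCN, a MYC family transcription factor, held 46.2, 50.05 and 53.7 CPM (counts scaled by library size) in DOX 12, 24 and 36, against 76.8, 109.5 and 86.9 CPM in DMSO 11, 23 and 35, without overlap. MYC held 206, 200.5 and 193 CPM in DOX, against 279, 201 and 256 CPM in DMSO, with overlap. For MYCN the log2 fold change was -0.87 ± 0.13, with an adjusted p of 0.0726 by edgeR and 7.92e-06 by DESeq2, and 2.78e-09 to 0.344 over the 15 alternatives. For MYC it was -0.30 ± 0.12, with an adjusted p of 0.176 by edgeR and 0.147 by DESeq2, and 0 of the 15 alternatives called it. These are RNA levels, and protein was not measured here, so they do not show how far either target was lost. Of 14 T-lineage leukaemia markers, 12 passed the filter on low counts, and CD1A and CD1B did not; their summed level was 2356 to 2456 CPM in DOX and 2386 to 2621 CPM in DMSO. EdgeR called 0 of the 12 (2 had an unadjusted p under 0.05). DESeq2 called 2 lower, both below all DMSO libraries: LMO1, at 119.5 to 126 CPM in DOX and 155 to 161 CPM in DMSO (adjusted p = 0.00310), and PTCRA, at 3.95 to 4.20 CPM in DOX and 5.47 to 7.74 CPM in DMSO (adjusted p = 0.00778). CD2 held 13.5 to 15.5 CPM in DOX, against 19.6, 5.35 and 6.96 CPM in DMSO 11, 23 and 35. The part of these genes in the results was not tested. Of the B-lineage markers, BLK held 66.5 to 72.0 CPM in DOX and 74.5 to 79.3 CPM in DMSO, the other 5 held at most 3.76 CPM in any library, and MS4A1 was at 0 counts throughout, which allows at most 0.105 CPM; the part of BLK in the results was not tested. The 6 myeloid markers summed to at most 1.67 CPM. Library DMSO 11 differed from its group. Over the 32 genes it was nearer to the DOX libraries, with a root mean square log2 distance of 0.36 to 0.45, than to DMSO 23 (0.57) or DMSO 35 (0.50). DMSO 23 and DMSO 35 were 0.18 apart, and the DOX libraries 0.09 to 0.13 apart. Across 9311 genes averaging 10 CPM or more, DMSO 11 was 0.18 to 0.21 from the DOX libraries, 0.43 from DMSO 23 and 0.41 from DMSO 35. Fold changes and calls are therefore also given without it. Those rest on 2 DMSO libraries, DMSO 23 and DMSO 35. Leaving out the DMSO library nearest to DOX favours larger differences and smaller errors, so those calls are not independent support.

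The E-box was searched for in the RefSeq promoter windows (GRCh38.p14, 300 bases each, mostly upstream of an annotated start) of the 30 members that matched. SLC16A1 and PFKFB2 had no window and were not searched. A gene can have more than 1 start. CACGTG, which reads the same on both strands, stood in a window of 7 of these 30 genes (HK2, ALDOA, ALDOC, GAPDH, LDHA, PFKFB3 and PGM2). By window it stood in 7 of 58, or 12.1%, against 7.26% of all 35116 windows, and by gene in 8.77% of all genes. The shorter core ACGTG lies inside CACGTG and was searched on both strands. It stood in a window of 17 of the 30 genes, against 24.9% of all genes. By window it stood in 36.2% of member windows, against 21.4% of all windows. The 30 members had 58 windows and all 27305 genes had 35116, so members had more windows per gene in which to match. Windows of the same gene can overlap, so the same site can be counted in more than 1 window. Shown here are the windows of ALDOC and HK2, the isoenzymes whose share of their enzyme differed between the groups without overlap, of LDHA, which has a pair of E-boxes, and of TKT, one of the genes that lay lower in DOX. HK2 and LDHA have 2 windows each; the one printed holds the E-boxes, and the other, not printed, holds 0. Capitals mark CACGTG, and each sequence runs 5′ to 3′ on the strand of its gene.
ALDOC, chr17:28576846-28577145, minus strand: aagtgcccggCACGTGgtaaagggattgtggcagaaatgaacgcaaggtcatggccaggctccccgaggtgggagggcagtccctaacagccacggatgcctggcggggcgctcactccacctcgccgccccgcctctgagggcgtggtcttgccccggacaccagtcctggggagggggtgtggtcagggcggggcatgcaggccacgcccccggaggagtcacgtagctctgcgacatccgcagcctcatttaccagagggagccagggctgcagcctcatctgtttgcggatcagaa
HK2, chr2:74834920-74835219, plus strand: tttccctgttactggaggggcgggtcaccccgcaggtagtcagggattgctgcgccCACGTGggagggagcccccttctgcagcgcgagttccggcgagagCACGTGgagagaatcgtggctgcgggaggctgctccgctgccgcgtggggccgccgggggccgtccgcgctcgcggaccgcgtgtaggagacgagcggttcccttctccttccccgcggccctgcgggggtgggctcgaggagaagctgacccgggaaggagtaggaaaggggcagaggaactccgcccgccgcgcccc
LDHA, chr11:18394313-18394612, plus strand: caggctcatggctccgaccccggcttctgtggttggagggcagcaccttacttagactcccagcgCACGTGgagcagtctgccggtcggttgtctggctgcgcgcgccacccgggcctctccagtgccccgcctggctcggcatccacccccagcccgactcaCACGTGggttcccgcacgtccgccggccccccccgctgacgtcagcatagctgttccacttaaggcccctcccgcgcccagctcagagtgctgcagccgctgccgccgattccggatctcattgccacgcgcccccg
TKT, chr3:53255973-53256272, minus strand: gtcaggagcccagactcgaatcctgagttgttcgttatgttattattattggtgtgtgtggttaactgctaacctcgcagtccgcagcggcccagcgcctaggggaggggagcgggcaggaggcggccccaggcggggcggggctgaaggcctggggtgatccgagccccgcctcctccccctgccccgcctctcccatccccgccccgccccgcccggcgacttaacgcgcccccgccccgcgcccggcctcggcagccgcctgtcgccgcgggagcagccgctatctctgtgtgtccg
The first base of the motif lies at -240 in ALDOC, at -194 and -149 in HK2, and at -185 and -87 in LDHA, counted from the start, and the TKT window holds none. A match is a description of the letters only.

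All 32 genes passed the filter on low counts. Tested by edgeR's quasi-likelihood method and adjusted by Benjamini-Hochberg over all genes, 0 of them were called. The method called 0.0313% of all 15949 genes (0.0125% higher in DOX and 0.0188% lower), and the adjusted p ran from 0.0504 for ALDOC to 0.997 for PFKM. At an unadjusted p under 0.05 (26.0% of all genes) it counted 8 genes higher (11.2% of all genes) and 2 lower (14.8% of all genes). DESeq2, which called 10.2% of all genes with an adjusted p, called 5 members higher in DOX (3.2% of all) and 0 lower (7.05% of all). These were ALDOC, HK2, SLC16A1, SLC16A3 and PFKFB2, which are also the 5 members under an adjusted p of 0.05 in the authors' deposited table (9.57% of its genes, 2.96% higher and 6.61% lower). EdgeR's likelihood ratio test called the same 5, where it called 9.99% of all genes (4.1% higher and 5.89% lower). With no filter on low counts, edgeR's quasi-likelihood test called 8, where it called 5.56% of all genes: those 5, PFKFB4 and BPGM higher (1.94% of all) and ENO3 lower (3.62% of all). The median log2 fold change over the 32 genes was 0.17, against 0.00 over all genes tested, with 25 positive values (49.7% of all genes) and 7 negative ones. Leaving out 1 library changed how many members DESeq2 called. It called ALDOC alone without DOX 12, DOX 24, DOX 36 or DMSO 35, where it called 0.832%, 1.12%, 1.19% and 1.16% of all genes, in that order. It called ALDOC, HK2 and SLC16A3 without DMSO 23 (1.26% of all genes), and 26 members without DMSO 11 (41.6% of all genes).

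The libraries fell into a few arrangements, which the heat map of levels by library shows gene by gene. Every DOX library exceeded every DMSO library in 8 of the 32 genes (14.6% of all genes), and in 3 every DOX library was lower (15.6% of all genes). In 16 genes the DOX libraries lay below DMSO 11 and above DMSO 23 and DMSO 35, an arrangement found in 9.22% of all genes. The reverse, with DOX above DMSO 11 and below the other 2 DMSO libraries, was seen for ENO3 (8.43% of all genes). DMSO 11 held the highest value of the 6 libraries in 20 of the 32 genes, against 18.4% of all genes. With other scalings 6 placements changed: ALDOA and TPI1 left the group of 16 with total count or upper quartile scaling, and HK1 joined it with upper quartile scaling. RPE no longer lay below all DMSO libraries with total count scaling, nor PGLS with upper quartile scaling, and PFKFB3 lay above them with upper quartile scaling or DESeq2 size factors.

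**Figure D1:**
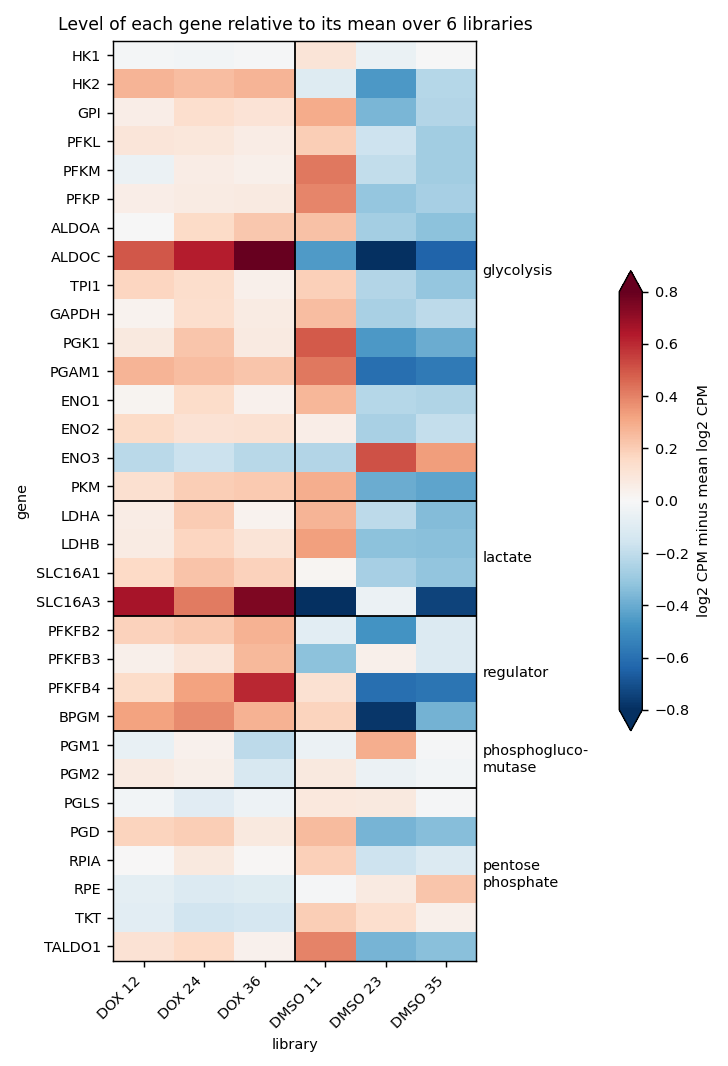
Log2 CPM of each of the 32 genes (rows) in the 6 libraries (columns) minus the gene's mean over the libraries; the colour scale is cut at 0.8 in either direction, horizontal lines separate the groups of enzymes. Most glycolysis rows are highest in DMSO 11, intermediate in the DOX libraries and lowest in DMSO 23 and DMSO 35, while ALDOC and HK2 are highest in the DOX libraries and TKT is lowest there.

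Hexokinases phosphorylate glucose and hold it in the cell. HK2, the inducible hexokinase bound to mitochondria, held 73.5, 72.0 and 73.4 CPM in DOX 12, 24 and 36, against 56.7, 44.2 and 51.8 CPM in DMSO 11, 23 and 35. The groups did not overlap and the DOX libraries lay close together. Its log2 fold change was 0.52 ± 0.10 (SE), with an adjusted p of 0.0846 by edgeR's quasi-likelihood test and 0.00365 by DESeq2, and 1.77e-06 to 0.344 over the 15 alternatives. HK1, the ubiquitous hexokinase, was at 146 ± 0.844 CPM in DOX and 149 ± 8.13 CPM in DMSO (SD, n = 3 each; log2 fold change -0.03 ± 0.08). HK2 made up 33.6%, 33.2% and 33.4% of the counts of both hexokinases in DOX, against 26.4%, 23.7% and 26.1% in DMSO. Within a library the log2 ratio of HK2 to HK1 was higher in DOX by 0.56, without overlap, with p = 0.1 by the two-sided exact permutation test, which is the lowest p possible with 3 libraries a group, and 0.36 adjusted over the 9 isoenzyme pairs compared. Per kilobase of transcript HK1 remained the higher of both, at 42.6 CPM per kilobase of median coding transcript in DOX against 13.2 for HK2, and at 36.4 against 12.6 with the longest transcript.

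Among the enzymes of upper glycolysis, aldolase C had the largest fold change. Aldolases split fructose 1,6-bisphosphate into a pair of 3-carbon sugars, and ALDOC is the isoenzyme best known from brain. ALDOC held 13.9, 15.2 and 17.8 CPM in DOX 12, 24 and 36, against 7.22, 5.35 and 6.32 CPM in DMSO 11, 23 and 35, and the groups did not overlap. Its log2 fold change was 1.31 ± 0.15, with an adjusted p of 0.0504 by edgeR and 5.29e-10 by DESeq2, and 8.57e-11 to 0.313 over the 15 alternatives. The fold change stayed between 1.21 and 1.42 whichever library was left out. ALDOA, the main aldolase of muscle and of most cells, held 697, 775 and 810 CPM in DOX, against 823, 579 and 556 CPM in DMSO. It overlapped and was not called (0.22 ± 0.16, edgeR adjusted p = 0.387). The share of ALDOC in all aldolase A and C counts was 1.96%, 1.93% and 2.16% in DOX, against 0.870%, 0.916% and 1.124% in DMSO, and the log2 ratio was higher in DOX by 1.08 with no overlap (exact permutation p = 0.1, 0.36 adjusted over the pairs).

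The other enzymes of upper glycolysis shared 1 arrangement. GPI, which turns glucose 6-phosphate into fructose 6-phosphate, held 244, 258 and 255 CPM in DOX, against 289.9 CPM in DMSO 11 and 183 and 201 CPM in DMSO 23 and 35. TPI1, which interconverts the 3-carbon sugars, held 694, 679.7 and 634 CPM in DOX, against 706, 524 and 499 CPM in DMSO. In both, the DOX libraries lay between DMSO 11 and the other 2 DMSO libraries. The 3 phosphofructokinase genes, whose products form the mixed tetramers that commit sugar to glycolysis, did the same. PFKP, the platelet type, averaged 174 ± 1.22 CPM in DOX and 164 ± 47.2 CPM in DMSO, PFKL, the liver type, 191 ± 2.86 CPM in DOX and 173 ± 30.9 CPM in DMSO, and PFKM, the muscle type, 122 ± 4.91 CPM in DOX and 122 ± 34.4 CPM in DMSO. The spread over the DMSO libraries exceeded each difference of means. The sign for PFKP and PFKM was not stable: without DMSO 35 the log2 fold changes were -0.02 and -0.13, without DMSO 23 they were -0.04 and -0.10, and without DMSO 11 they were 0.35 and 0.26. Within libraries the ratio of PFKP to PFKL differed by -0.04 (exact permutation p = 0.8) and that of PFKM to PFKL by -0.13 (exact permutation p = 0.2), both with overlapping groups.

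Lower glycolysis turns 3-carbon sugars into pyruvate and makes its ATP. GAPDH, the dehydrogenase at its entry, held 3023, 3258 and 3104 CPM in DOX 12, 24 and 36, against 3517, 2481 and 2564 CPM in DMSO 11, 23 and 35. PGK1, the first ATP-making kinase, held 475, 526 and 474 CPM in DOX, against 632, 327 and 342 CPM in DMSO. PGAM1, the mutase, held 139, 136 and 134 CPM in DOX, against 154, 75.6 and 77.4 CPM in DMSO. In all 3 genes DMSO 11 was the highest library and DMSO 23 and 35 were the lowest, with the DOX libraries close together in between. The log2 fold changes were 0.13 ± 0.15, 0.18 ± 0.23 and 0.41 ± 0.25, and without DMSO 11 they were 0.31 ± 0.08, 0.55 ± 0.07 and 0.83 ± 0.06. PKM, which encodes both M-type pyruvate kinases and catalyses the last step, held 368, 385 and 389 CPM in DOX, against 412, 255 and 251 CPM in DMSO (0.31 ± 0.18, and 0.59 ± 0.07 without DMSO 11).

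Enolases make phosphoenolpyruvate, and their 3 genes differed in arrangement. ENO1, the ubiquitous enolase, held 1540.2, 1678 and 1552 CPM in DOX, against 1825, 1298 and 1285 CPM in DMSO (0.11 ± 0.15). ENO2, the neuronal isoenzyme, held 282, 275.1 and 275.4 CPM in DOX, against 263, 212 and 222 CPM in DMSO. All DOX libraries lay above all DMSO libraries for ENO2, at a log2 fold change of 0.26 ± 0.10 (edgeR adjusted p = 0.164). ENO3, the muscle isoenzyme, held 12.02, 12.4 and 11.97 CPM in DOX, against 11.9, 19.9 and 17.6 CPM in DMSO. For ENO3 the DOX libraries matched DMSO 11 closely and lay below the other 2 DMSO libraries (-0.44 ± 0.18). It thus ran opposite to the other glycolytic enzymes between DMSO 11 and DMSO 23 and 35. The ratio of ENO2 to ENO1 differed by 0.13 with overlap (exact permutation p = 0.2).

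**Figure D2:**
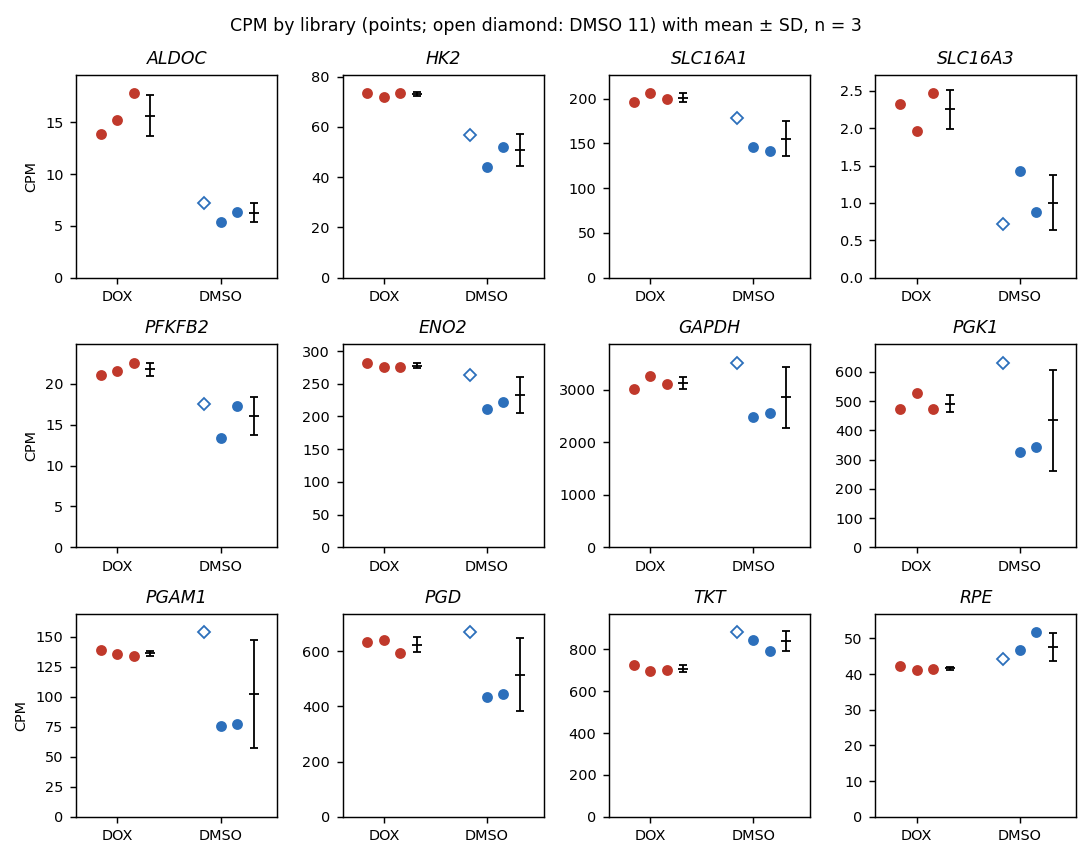
CPM of 12 genes in the DOX and DMSO libraries (points, with DMSO 11 as an open diamond) and the mean ± SD (bars, n = 3 per group), on axes that start at 0. ALDOC, HK2, SLC16A1, SLC16A3, PFKFB2 and ENO2 lie higher in all DOX libraries, GAPDH, PGK1, PGAM1 and PGD lie between DMSO 11 and the other DMSO libraries, and TKT and RPE lie lower in all DOX libraries.

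Lactate dehydrogenase is a tetramer of A and B chains. LDHA held 907, 1004 and 888 CPM in DOX 12, 24 and 36, against 1052, 755 and 687 CPM in DMSO 11, 23 and 35, and LDHB held 975, 1049 and 999.6 CPM in DOX, against 1167, 740.1 and 737 CPM in DMSO. Both lay between DMSO 11 and the other DMSO libraries, and neither was called (LDHA 0.17 ± 0.16 and LDHB 0.19 ± 0.18). LDHB made up 51.8%, 51.1% and 53.0% of their counts in DOX, against 52.6%, 49.5% and 51.8% in DMSO. The log2 ratio differed by 0.04 (exact permutation p = 0.6).

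SLC16A1 and SLC16A3, the members that carry lactate across the plasma membrane with a proton, were higher in every DOX library. SLC16A7 and SLC16A8, read from outside the set, overlapped between the groups, with edgeR log2 fold changes of -0.15 and -0.01. SLC16A1 (MCT1), which works in both directions, held 196, 206 and 199.9 CPM in DOX, against 178, 146 and 142 CPM in DMSO. The log2 fold change was 0.37 ± 0.10. Its adjusted p was 0.101 by edgeR and 0.0438 by DESeq2, and 3.95e-06 to 0.344 over the 15 alternatives. SLC16A3 (MCT4), the exporter of strongly glycolytic cells, held 2.32, 1.96 and 2.47 CPM in DOX, against 0.714, 1.42 and 0.879 CPM in DMSO. It was by far the lower of both transporters, with 20 to 71 counts per library, and its DMSO libraries spanned a wider range than the gap between the groups. Its log2 fold change was 1.16 ± 0.27, with an adjusted p of 0.0898 by edgeR and 0.0129 by DESeq2, and 0.00183 to 0.344 over the 15 alternatives. Its lowest library was DMSO 11. The ratio of SLC16A3 to SLC16A1 was higher in DOX by 0.84, with overlap (exact permutation p = 0.2).

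The regulators adjust glycolysis through fructose 2,6-bisphosphate, the activator of phosphofructokinase that the PFKFB enzymes make and break down, and through 2,3-bisphosphoglycerate, the product of BPGM. PFKFB2 held 21.1, 21.6 and 22.6 CPM in DOX 12, 24 and 36, against 17.6, 13.4 and 17.2 CPM in DMSO 11, 23 and 35. Its log2 fold change was 0.44 ± 0.13, with an adjusted p of 0.103 by edgeR and 0.0429 by DESeq2, and 0.000372 to 0.344 over the 15 alternatives. PFKFB2 lay higher in every DOX library, and so did PFKFB4 and BPGM. PFKFB4 held 4.43, 5.01 and 6.09 CPM in DOX, against 4.36, 2.64 and 2.67 CPM in DMSO (0.68 ± 0.23, edgeR adjusted p = 0.127), with DOX 12 and DMSO 11 almost level. BPGM held 16.7, 17.3 and 16.2 CPM in DOX, against 15.1, 7.79 and 10.2 CPM in DMSO (0.60 ± 0.21, edgeR adjusted p = 0.139). PFKFB3, which favours synthesis of the activator, held 15.04, 15.7 and 17.5 CPM in DOX, against 11.6, 15.1 and 13.6 CPM in DMSO. Its groups overlapped by a narrow margin (0.26 ± 0.13, edgeR adjusted p = 0.233). The 4 regulators had the highest median log2 fold change of the 5 groups of enzymes, at 0.52.

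The phosphoglucomutases link glucose 6-phosphate to glycogen and, for PGM2, ribose phosphates to the pentose pathway. PGM1 averaged 6.92 ± 0.586 CPM in DOX and 7.73 ± 1.03 CPM in DMSO, and PGM2 averaged 58.3 ± 4.32 CPM in DOX and 58.4 ± 2.64 CPM in DMSO. Both differences were smaller than the spread between libraries, with log2 fold changes of -0.16 ± 0.14 and 0.00 ± 0.09. PGM1 and PGM2 were not called without DMSO 11 either.

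The pentose phosphate enzymes divided into 2 arrangements. In the oxidative arm, PGD, which makes NADPH and releases carbon dioxide, held 634, 642 and 592 CPM in DOX 12, 24 and 36, against 669, 433 and 443 CPM in DMSO 11, 23 and 35. PGLS, the lactonase one step before, held 44.6, 42.5 and 44.0 CPM in DOX, against 48.2, 48.0 and 45.1 CPM in DMSO. PGD thus followed the glycolytic pattern, with DMSO 11 highest and DMSO 23 and 35 lowest, while PGLS was slightly lower in every DOX library. Their log2 fold changes were 0.27 ± 0.17 and -0.11 ± 0.08. In the non-oxidative arm, TKT, the transketolase that moves 2-carbon units, held 726, 694 and 703 CPM in DOX, against 883, 846 and 791 CPM in DMSO. RPE, the ribulose phosphate epimerase, held 42.2, 41.2 and 41.6 CPM in DOX, against 44.3, 46.8 and 51.8 CPM in DMSO. Both lay lower in every DOX library, and neither passed the test (TKT -0.25 ± 0.09, edgeR adjusted p = 0.148; RPE -0.19 ± 0.09, edgeR adjusted p = 0.204). TALDO1, the transaldolase that moves 3-carbon units, held 122, 126 and 116 CPM in DOX, against 148, 87.1 and 89.3 CPM in DMSO. RPIA, the ribose phosphate isomerase, held 61.4, 64.6 and 61.5 CPM in DOX, against 69.7, 54.5 and 56.6 CPM in DMSO. TALDO1 and RPIA showed the pattern of PGD, with log2 fold changes of 0.16 ± 0.19 and 0.05 ± 0.11.

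Set side by side, the median log2 fold change was -0.03 over the 6 pentose phosphate genes, 0.17 over the 16 enzymes from hexokinase to pyruvate kinase, and 0.28 over the 4 lactate genes, against 0.00 over all genes. All 3 members of the set that lay below every DMSO library were pentose phosphate genes, and all 8 that lay above were outside that pathway. Within each library, the median deviation of the pentose phosphate genes minus that of the glycolysis genes was -0.07, -0.14 and -0.09 in DOX 12, 24 and 36, against -0.05, 0.22 and 0.21 in DMSO 11, 23 and 35. The DOX libraries lay below all DMSO libraries in this difference, with DMSO 11 close to DOX and far from the other 2 DMSO libraries. Members of a pathway are not replicates, so no test was made over them.

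Of the alternatives tried, leaving out DMSO 11, with only DMSO 23 and DMSO 35 as controls, changed the members' calls most. EdgeR's quasi-likelihood test then called 27 of the 32 genes, 24 higher (23.7% of all genes) and 3 lower (25.7% of all genes), in a fit that called 49.4% of 16412 genes. The 3 lower genes were ENO3, RPE and TKT, and the 5 not called were HK1, PFKFB3, PGM1, PGM2 and PGLS. DESeq2 without DMSO 11 called 23 higher (19.6% of all) and 3 lower (22.0% of all). Without DMSO 11 the log2 fold change was 0.39 for GPI and TPI1, 0.30 for PFKL and ENO1, 0.37 for LDHA, 0.45 for LDHB, 0.42 for ALDOA, 0.51 for PGD, 0.46 for TALDO1 and 0.17 for RPIA. It was 1.42 for ALDOC, 0.60 for HK2, 0.48 for SLC16A1, 0.96 for SLC16A3 and PFKFB4, 0.51 for PFKFB2 and 0.89 for BPGM, and on the lower side -0.63 for ENO3, -0.24 for RPE and -0.21 for TKT. The median over the 16 glycolysis enzymes was then 0.37, over the lactate genes 0.46, over the regulators 0.70 and over the pentose phosphate genes 0.04. Against DMSO 11 alone, the mean log2 CPM of the DOX libraries was higher for SLC16A3 by 1.56, for ALDOC by 1.10, for PFKFB3 by 0.46, for HK2 by 0.36, for PFKFB2 by 0.31, for PFKFB4 by 0.23, for SLC16A1 by 0.17, for BPGM by 0.15, for ENO2 by 0.08 and for ENO3 by 0.03. It was lower for the other members, and for PGK1 the difference was -0.36, for PGAM1 -0.18 and for GAPDH -0.17. EdgeR called 0 members without any 1 of the other 5 libraries.

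**Figure D3:**
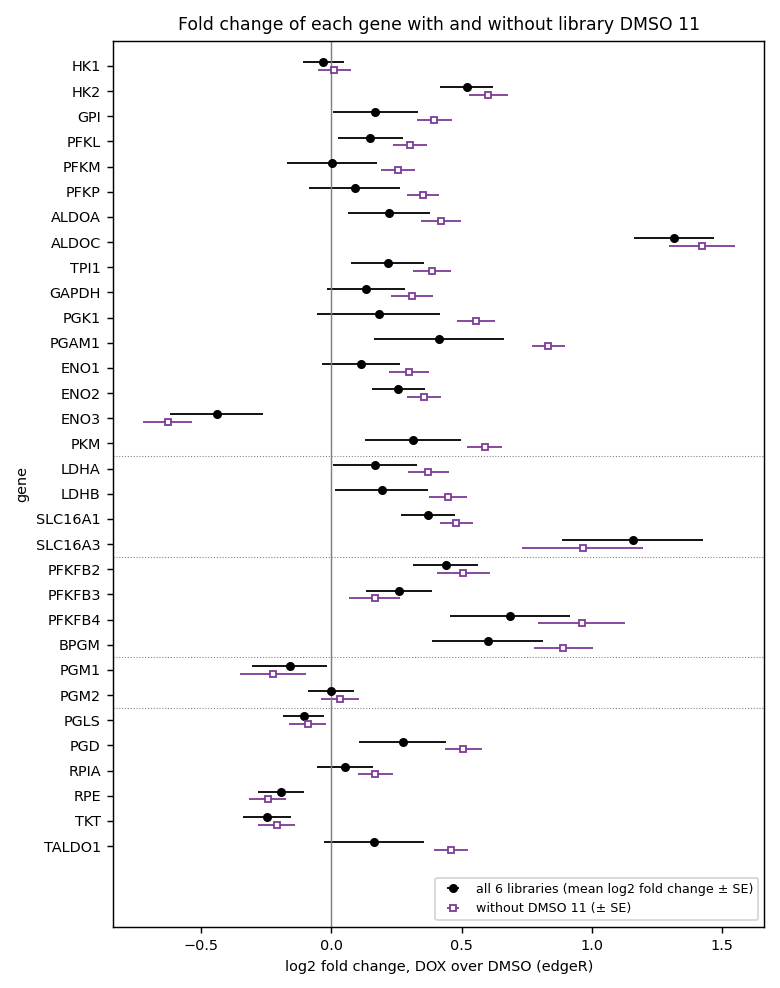
Log2 fold change of DOX over DMSO ± SE for each of the 32 genes from edgeR, with all 6 libraries (filled circles) and without DMSO 11 (open squares); dotted lines separate the groups of enzymes. Values without DMSO 11 lie further to the right for most glycolysis genes (PGAM1 0.83 against 0.41), and hardly move for ALDOC, HK2 and TKT.

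**Figure D4:**
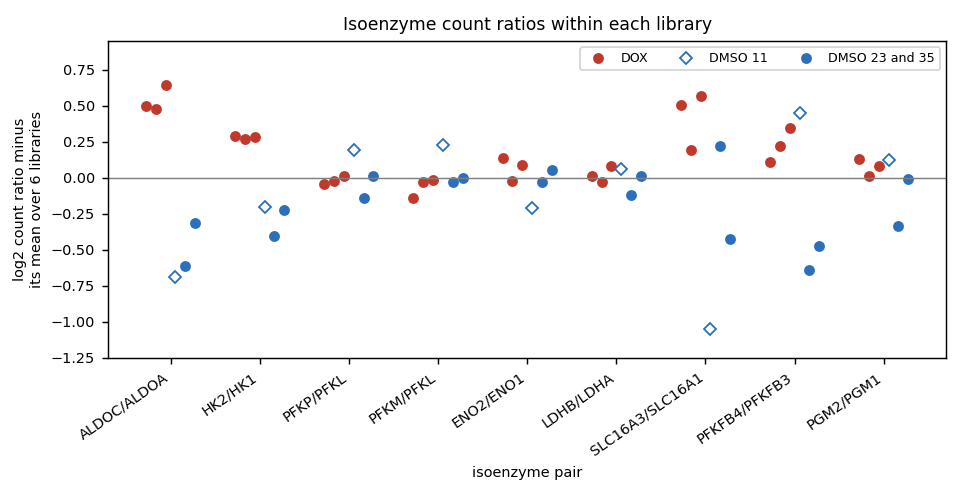
Log2 ratio of the counts of 2 isoenzymes within each library, minus the mean of that ratio over the 6 libraries, for 9 pairs; red points are DOX libraries, blue points DMSO libraries and the open diamond DMSO 11. The groups separate for ALDOC to ALDOA and for HK2 to HK1 and overlap in the other pairs.

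Among the 9 isoenzyme pairs, the DOX and DMSO libraries separated in 2, ALDOC to ALDOA and HK2 to HK1. For single genes, the libraries separated with DOX higher in 14.6% of all genes tested and with DOX lower in 15.6%. The share among ratios of other gene pairs was not computed. These 2 pairs were picked out by their separation, so DMSO 11 necessarily lies on the DMSO side in both. HK2 to HK1 stood at -0.985, -1.01 and -0.997 in DOX, against -1.48, -1.68 and -1.50 in DMSO 11, 23 and 35. ALDOC to ALDOA stood at -5.65, -5.67 and -5.50 in DOX, against -6.83, -6.76 and -6.46 in DMSO 11, 23 and 35. The ratio of PFKFB4 to PFKFB3 differed by 0.45 (exact permutation p = 0.4) and that of PGM2 to PGM1 by 0.15 (exact permutation p = 0.4), with overlap in both. With 3 libraries a group, no pair can pass 0.05 by this test.

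Per kilobase of median coding transcript, ENO1 and GAPDH were the most abundant of the 32 genes, at 2496 and 2446 CPM per kilobase in DOX and 2307 and 2231 in DMSO, followed by LDHB at 1355 in DOX and 1185 in DMSO. With the longest transcript GAPDH came first, ENO1 next and LDHB after them, and SLC16A3 was last by either length. Many of these genes, GAPDH, PGK1, PGAM1, ENO1, ALDOA, TPI1, LDHA and LDHB among them, have processed pseudogenes of near-identical sequence, and the sources used here do not say how reads shared with them were counted. Their levels are uncertain to that extent, and so are those of genes that overlap an antisense gene, since the strand setting of the counting is unknown.

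Other genes of the 2 pathways or linked to them were read from lists that do not overlap the 32. They are given here beside the shares over all genes, which were 26.0% at an unadjusted edgeR p under 0.05 and 10.2% by DESeq2. Of 30 further genes on the glycolysis list, 14 passed the filter on low counts. Not all on the list encode glycolytic enzymes (BSG, EMB, PGAM5 and G6PC3 do not). EdgeR and DESeq2 called 0 of the 14, and 2 had an unadjusted edgeR p under 0.05, both lower (PFKFB1 and G6PC3). The median fold change of the 14 on the log2 scale was -0.02. Those that did not pass included the tissue isoenzymes PKLR, HK3 and LDHC, and PGK2, PGAM2, ENO4 and FBP2 had 0 counts in every library, which allows at most 0.105 CPM. Of 13 further pentose phosphate genes, 11 passed the filter, edgeR called 0 (2 had an unadjusted p under 0.05), and DESeq2 called 1, the gluconokinase gene IDNK. IDNK held 3.36, 3.47 and 3.55 CPM in DOX, against 3.97, 8.10 and 7.10 CPM in DMSO (DESeq2 adjusted p = 0.0165, and 8.45e-07 to 0.344 over the 15 alternatives).

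Genes that govern glucose entry, and hypoxia-inducible genes outside glycolysis, were read beside the set, and the same shares over all genes apply. TXNIP, the brake on glucose uptake that responds to sugar phosphates, held 63.0, 68.1 and 69.5 CPM in DOX, against 132, 397 and 364 CPM in DMSO, so that DMSO 11 lay nearest to DOX here too. SLC2A3, a high-affinity glucose transporter, held 12.5, 13.7 and 14.7 CPM in DOX, against 7.93, 4.98 and 4.43 CPM in DMSO, whereas SLC2A1, the ubiquitous transporter, held 44.9 to 46.9 CPM in DOX and 38.7 to 45.05 CPM in DMSO. Of 10 such genes, 6 passed the filter, edgeR called 0 (4 had an unadjusted p under 0.05), and DESeq2 called SLC2A3 higher and TXNIP and ARRDC4 lower. Of 20 hypoxia genes, 17 passed the filter; DESeq2 called BNIP3 and WSB1 higher and MXI1 lower, edgeR called 0 (9 had an unadjusted p under 0.05, 6 higher and 3 lower), and their median was -0.04 on the log2 scale. BNIP3, a mitophagy receptor, held 4.23, 5.08 and 4.42 CPM in DOX, against 2.32, 1.86 and 1.79 CPM in DMSO. The median deviation of the hypoxia list from its mean over all libraries was -0.10 in DMSO 11, against 0.24 for the glycolysis enzymes there; this difference was not tested.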

How the data were processed

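The authors deposited raw read counts per Ensembl gene for 3 DOX and 3 DMSO libraries, and a table of their own comparison that holds, per the file headers, the mean normalised signal, log2 fold changes and their errors, a test score and p-values. Per the submitters' processing notes, the tools were STAR 2.5.2a, featureCounts and DESeq2 1.12.4, with genome hg19; libraries were strand-specific, per the labels' protocols. The annotation release and counting strand are not given in the sources used here. Columns show their group but no label's replicate number. The 92 spike-in rows held 0 counts and were left out, and 0 columns stayed unused.

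Genes passing edgeR's filterByExpr (15949) entered the robust quasi-likelihood F test of edgeR 4.0.16 (R 4.3.3) after TMM scaling, DOX over DMSO, with Benjamini-Hochberg adjustment over all of them at a threshold of 0.05. Standard errors are the absolute log2 fold change over the root of F. CPM use library totals multiplied by TMM factors. DESeq2 1.42.0, limma 3.58.1 (voom), edgeR's likelihood ratio test, other scalings and filters, each library left out in turn, and a block on consecutive column numbers were alternatives. Isoenzyme ratios were compared by two-sided exact permutation tests. The tests were tried on simulated data. Figures were drawn with matplotlib.

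The members, the other gene lists (1 of their 100 symbols had no match) and the tests were chosen with earlier results of these data known, and all 32 members are named. Transcript lengths came from GENCODE 29, and promoter sequences from RefSeq. All totals lay between 28602145 and 29204148 counts, and all pairs of libraries differed by more than sampling noise (mean chi-square per gene of at least 4.59).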

Additional observations from a re-analysis of the deposited data

How the results depend on the processing

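EdgeR called 5 genes and 0 of the 32 members. DESeq2 called 1399 genes and 5 members, edgeR's likelihood ratio test 1594 and 5, and edgeR with no filter on low counts 1761 and 8. Upper quartile and total count scaling each called 1 member, ALDOC. With 1 library left out, edgeR called 0 to 8109 genes and 0 to 27 members. DESeq2 with 1 library left out, added after the data were seen, called 111 to 6545 genes and 1 to 26 members (111 genes without DOX 12, 169 without DOX 24, 159 without DOX 36, 184 without DMSO 23 and 163 without DMSO 35, with 3 members without DMSO 23). Both highest counts are those without DMSO 11; without any other library edgeR called 0 genes, and 2273 to 2629 had an unadjusted p under 0.05. The cause was not tested. The pentose phosphate minus glycolysis median was -0.20, and -0.33 to -0.13 with 1 library left out.

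Of the members' log2 fold changes under alternatives, 417 kept their direction and side of the threshold, 47 passed it, and 16 changed sign, in HK1, PFKM, PFKP, PGM2 and RPIA. With all libraries, edgeR's quasi-likelihood test after filterByExpr and TMM scaling called none of the members. Without DMSO 11 it called PFKM, PFKP and RPIA of these genes. HK1 was at 0.00202 with upper quartile scaling, and at -0.0672 to 0.0116 with 1 library left out. PFKM was at -0.00721 with DESeq2, at -0.0122 with no filter, and at -0.131 to 0.256 with 1 library left out; PFKP was at -0.0381 to 0.350 and RPIA at -0.0183 to 0.168 in the same way. PGM2 was at 0.0305 with upper quartile scaling, 1.93e-05 with total count scaling, 0.00580 with a filter of 1 CPM in 3 libraries, and -0.0347 to 0.0571 with 1 library left out. The log2 ratio difference with 1 library left out was -0.119 to 0.0476 for PFKP to PFKL, with the sign changing without DMSO 11, and -0.0133 to 0.0757 for LDHB to LDHA, with the sign changing without DMSO 23.

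The count columns carry none of the labels' replicate numbers, but their own numbers run consecutively across the groups (DOX 12 and DMSO 11, DOX 24 and DMSO 23, DOX 36 and DMSO 35), and no label says whether these mark pairs. With a replicate block on these numbers, added after the data were seen, edgeR called 3 genes (3982 at an unadjusted p under 0.05) and 0 members, and the pentose phosphate minus glycolysis median was -0.24. The deviations of the 3 pairs from their group means correlated at 0.000593, -0.00884 and 0.000289 across genes, and no library correlated best with its neighbour in number, so the fit without the block is given in the report. With 20 counts in its lowest library, SLC16A3 was the member most limited by depth.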
